A study of Mus musculus with 2 samples.

Results

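T cell receptor probes were taken from the array as the noncontrol probes whose description names a T cell receptor alpha, beta, gamma or delta chain, leaving out descriptions of associated or recombination genes. There were 78 such probes among 55681 noncontrol probes. They comprised 41 alpha variable probes, 1 alpha constant probe, 25 beta variable probes, 2 beta constant probes, 5 gamma variable probes, 1 gamma constant probe and 3 delta variable probes. The arrays held RNA of CD4 T cells sorted from spleen cell cultures of female mice of the strain OVA-TCR-Tg, which carry a transgenic receptor for ovalbumin (OVA). For the co-culture array, spleen cells stimulated earlier with 0.1 µg/mL TSST-1, a staphylococcal superantigen, were mixed with an equal number of naive spleen cells and given 0.1 mg/mL OVA for 24 h. For the naive-only array, naive spleen cells alone received OVA for 24 h. Every culture came from the same transgenic strain, and the labels name neither the transgenic line nor its V segments. They also leave unsaid whether sorting parted naive from pre-stimulated cells, which the study calls anergic, and RNA of both may be on the co-culture array. With 1 array per group, no difference has a replicate check and no test was possible.

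An alpha-beta T cell receptor is made of an alpha and a beta chain. Each chain holds a variable (V) segment, brought together with a joining (J) segment by rearrangement in the thymus, and a constant segment. The V segments contact antigen, and the constant segments anchor the chain in the membrane beside the CD3 subunits. Gamma and delta chains form the receptor of a separate lineage. A rearranged beta transgene largely prevents rearrangement of the endogenous beta genes (allelic exclusion), whereas endogenous alpha genes can still rearrange. Superantigens bind the V beta part of the receptor outside the peptide contact, so that they stimulate T cells by V beta family. In mice, TSST-1 is known to stimulate cells bearing Vβ15, the product of the segment Trbv20. The comparison therefore bears on which receptor chains the sorted cells carried in each culture.

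Which segment a probe reports depends on its sequence, and the probes that carry the main observations are printed here, 5′ to 3′, as given in the array files (mm9 positions). The V beta probes come first, with capitals marking probe-strand matches to TANNNNTGT. This pattern fits a tyrosine codon, another codon and then the conserved cysteine codon near the 3′ end of V segments. The search covered both strands, and opposite-strand matches, which the Trbv20 and Trbv13-3 probes hold, are not in capitals.
Trbv20: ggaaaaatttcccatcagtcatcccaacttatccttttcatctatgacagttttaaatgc
Trbv23: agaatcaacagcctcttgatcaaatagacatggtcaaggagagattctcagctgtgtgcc
Trbv17: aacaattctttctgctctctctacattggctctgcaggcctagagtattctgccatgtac
Trbv19: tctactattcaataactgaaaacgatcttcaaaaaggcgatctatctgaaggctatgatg
Trbv1: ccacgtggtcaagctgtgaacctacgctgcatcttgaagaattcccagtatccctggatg
Trbv14: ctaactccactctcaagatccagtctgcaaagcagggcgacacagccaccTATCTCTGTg
Trbv29: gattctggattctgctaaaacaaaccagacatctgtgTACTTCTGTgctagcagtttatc
Trbv13-1: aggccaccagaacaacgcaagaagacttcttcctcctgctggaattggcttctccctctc
Trbv13-2: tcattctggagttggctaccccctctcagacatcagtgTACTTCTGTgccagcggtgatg
Trbv13-3: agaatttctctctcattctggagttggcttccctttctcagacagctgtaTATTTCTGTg

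These lie on chromosome 6, on the plus strand, from chr6:40841637-40841696 for Trbv1 to chr6:41221821-41221880 for Trbv29, with Trbv20 at chr6:41138875-41138934 and Trbv23 at chr6:41166384-41166443. The motif occurred on the probe strand in 12 of 25 beta variable probes (48%) and 8 of 41 alpha variable probes (19.5%), against 7.88% of all 55681 probes of 60 bases. On the opposite strand it occurred in 4 of the 25, 2 of the 41 and 6.47% of all probes. The Trbv13-2 probe shown is the more 3′ of the 2 on the array, and 41 of 48 aligned bases matched the Trbv13-3 probe (85.4%), so RNA of either segment may bind to both. The constant region probes follow, without motif matches.
Trbc1: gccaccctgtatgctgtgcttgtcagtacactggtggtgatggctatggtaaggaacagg
Trbc2: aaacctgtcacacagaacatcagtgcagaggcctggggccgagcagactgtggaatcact
Trac: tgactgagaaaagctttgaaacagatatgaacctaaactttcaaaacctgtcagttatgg
gamma constant: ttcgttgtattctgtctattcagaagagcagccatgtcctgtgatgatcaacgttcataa

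The Trbc1 probe lies at chr6:41489287-41489346, the gamma constant probe at chr13:19444153-19444212, both on the plus strand. The Trbc2 probe, 60 bases long, spans 565 bases of the genome (chr6:41497058-41497622), and the Trac probe spans 900 (chr14:54841802-54842701), so each is split in the genome, as a probe across a splice junction would be. The Trav9 probes are shown with capitals at the 6 of 60 positions where they differ, because near-identical segments of the duplicated V alpha locus cannot be told apart with certainty.
Trav9n-4: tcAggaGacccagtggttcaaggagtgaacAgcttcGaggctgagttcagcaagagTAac
Trav9d-1: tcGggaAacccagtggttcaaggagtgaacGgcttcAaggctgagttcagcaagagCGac

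Trav9n-4 lies at chr14:53914576-53914635 and Trav9d-1 at chr14:53412323-53412382, both on the plus strand.

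Constant region RNA of the alpha and beta chains was at a like level on both arrays. Trbc1, the first beta constant gene, had a processed signal of 77750 intensity units on the co-culture array and 80752 on the naive-only array. The log2 difference, co-culture minus naive-only after each array was scaled to its 75th percentile, was -0.06 ± 0.20 (technical error of the scanner software, which leaves out variation between cultures). Trbc2, the other beta constant gene, had 77048 units on the co-culture array and 87430 on the naive-only array, a difference of -0.19 ± 0.20. Trac, the alpha constant gene, had 25177 and 26625 units on the co-culture and naive-only arrays, a difference of -0.09 ± 0.20. Each of these differences lay within its technical error and near the median of -0.05 over the 23496 noncontrol probes well above background on both arrays. Trbc1 and Trbc2 encode nearly the same protein, and RNA of one may bind the probe of the other.

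Trbv20 was the only one of the 25 beta variable probes with a signal above the array's 75th percentile (301.3 units on the co-culture array and 299.4 on the naive-only array), and it was so on both arrays. It had 7218 units on the co-culture array and 9816 on the naive-only array. Its log2 difference was -0.45 ± 0.20, more than 2 times its technical error but short of 2-fold, and -0.45 to -0.40 under every alternative processing tried. This is 1.37-fold lower in co-culture. In a sorted bulk sample, fewer cells with a segment and less of its RNA per cell cannot be told apart. Because probes differ in how strongly they bind, signals of different probes are not amounts of receptor RNA, and only the same probe is compared between arrays.

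The remaining 24 beta variable probes lay between 4.92 and 209 units on the co-culture array and between 3.997 and 177 on the naive-only array. Of these, 17 were well above background on the co-culture array and 9 on the naive-only array. All 9 were among the 17. Another 8 beta variable probes were therefore above background on the co-culture array only, and none on the naive-only array only. That is 32% of the 25 beta variable probes, against 2.93% of all noncontrol probes above background on the co-culture array only and 4.03% on the naive-only array only. The count depends on the detection call. By the software's more lenient call of a positive and significant signal, 2 beta variable probes (Trbv17 and Trbv23) were detected on the co-culture array only and 3 (Trbv12-1, Trbv21 and Trbv30) on the naive-only array only, against 5.76% and 7.34% of all noncontrol probes.

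Trbv23, the segment of Vβ20, had 130 units on the co-culture array and 3.997 on the naive-only array, where it did not clear background. It was at least 6.98-fold higher in co-culture, the bound being taken against the lowest naive-only signal called well above background (18.5 units), or against the probe's own signal where that was higher. Trbv19, which encodes Vβ6, had 78.3 units on the co-culture array and 11.2 on the naive-only array, at least 4.20-fold higher. Trbv31, the V beta segment that lies in reverse orientation behind the constant genes (Vβ14), had 73.0 and 19.5 units on the co-culture and naive-only arrays, at least 3.73-fold higher. Trbv17 (Vβ9) had 39.9 units on the co-culture array and 4.16 on the naive-only array, at least 2.14-fold higher. These 4 had bounds above 2-fold, and none of the 4 cleared background on the naive-only array.

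The other 4 had bounds under 2-fold. Trbv14 (Vβ13) had 30.5 units on the co-culture array and 6.64 on the naive-only array, Trbv29 (Vβ7) had 27.3 and 10.2, Trbv15 (Vβ12) had 23.7 and 14.5, and the more 5′ Trbv13-2 probe had 31.4 and 21.5. Their bounds ran from 1.27-fold to 1.64-fold. After normexp background correction, which compresses dim signals, Trbv23 was at least 2.51-fold higher, while Trbv19 (1.73-fold), Trbv31 (1.61-fold) and Trbv17 (1.30-fold) fell short of 2-fold.

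Among the 9 beta variable probes other than Trbv20 that were well above background on both arrays, 7 had a positive difference (77.8%, against 45.1% of all probes measured on both arrays) and 2 were higher by 2-fold or more (against 6.56%). Trbv1 (Vβ2) had 151 units on the co-culture array and 20.6 on the naive-only array, a log2 difference of 2.87 ± 0.35 or 7.29-fold. Its naive-only signal was close to the lowest one called above background. Trbv13-1, the segment of Vβ8.3, had 112 units on the co-culture array and 42.0 on the naive-only array (1.41 ± 0.25, 2.65-fold). With normexp Trbv1 stood at 1.43 and Trbv13-1 at 0.72.

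The related Vβ8 segments differed less. Trbv13-3 (Vβ8.1) had 76.2 units on the co-culture array and 45.8 on the naive-only array (0.73 ± 0.25). The more 3′ Trbv13-2 probe (Vβ8.2) had 141 units on the co-culture array and 130 on the naive-only array (0.11 ± 0.21). A beta chain clone, GU599378, whose probe lies between those of Trbv15 and Trbv17, had 50.5 and 27.3 units on the co-culture and naive-only arrays (0.88 ± 0.33). The 2 probes of Trbv5 (Vβ1), which share 51 aligned positions with 2 mismatches, gave differences of 0.27 ± 0.21 and 0.23 ± 0.21.

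The negative differences came from Trbv12-2 and from a rearranged beta clone. Trbv12-2 (Vβ5.1) had 37.6 units on the co-culture array and 62.9 on the naive-only array (-0.75 ± 0.28). X61758, described as a rearranged Vβ17a region, had 58.0 and 82.1 units on the co-culture and naive-only arrays (-0.51 ± 0.25). Its probe has no mapped position, and the file files it under the joining segments (Tcrb-J). It may report joined J sequence of other beta chains, and its signal cannot be read as Vβ17a alone.

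Besides Vβ15, the families listed as known or possible TSST-1 responders were Vβ3, Vβ16 and Vβ17. The clone X61758, described as Vβ17a, was above background on both arrays, and no other Vβ17 probe was among the members. Because its probe may report joined J sequence, as said above, it does not show whether Vβ17 RNA was present. The probes of Vβ16 and Vβ3 cleared background on neither array. Trbv3 (Vβ16) had 15.2 units on the co-culture array and 6.07 on the naive-only array. Trbv26 (Vβ3) had 5.22 units on the co-culture array and 4.73 on the naive-only array. Neither array showed clear signal for Trbv2, Trbv12-1, Trbv21, Trbv30 and the probe named beta variable 10 in the files, which lies between Trbv3 and Trbv5. The signals of these ran from 4.92 to 24.2 units on the co-culture array and 5.34 to 18.2 on the naive-only array.

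Among the alpha variable probes, 3 of 41 had signals above the 75th percentile, the same 3 on each array. Trav9n-4 had 9161 units on the co-culture array and 9688 on the naive-only array (log2 difference -0.09 ± 0.20). Trav9d-1, from the duplicated copy of the same family, had 4747 units on the co-culture array and 5066 on the naive-only array (-0.10 ± 0.20). Trav2 had 988 and 978 units on the co-culture and naive-only arrays (0.01 ± 0.20). All of these differences lay within their technical error. A probe designed on another transcript, Trav9d-3, lies downstream of the Trav9n-4 probe at chr14:53914747-53914806 and had 48.8 units on the co-culture array and 42.2 on the naive-only array (0.20 ± 0.29).

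The other 38 alpha variable probes were dim, with signals from 4.31 to 180 units on the co-culture array and from 3.75 to 76.4 on the naive-only array. Of these, 14 were well above background on both arrays. Another 2 were so on the co-culture array only (5.26%, against 2.93% of all noncontrol probes). A further 4 were so on the naive-only array only (10.5%, against 4.03%). V alpha probes detected on a single array therefore fell on either side. Both probes named for the Trav14 family (Vα2) were higher by 2-fold or more. Trav14-2 had 123 units on the co-culture array and 46.6 on the naive-only array (1.39 ± 0.24), and Trav14n-1 had 180 and 75.02 (1.25 ± 0.22). The probe that the files name alpha variable 2.6 had 65.3 units on the co-culture array and 33.5 on the naive-only array (0.95 ± 0.28). With normexp these were 0.78, 0.80 and 0.40.

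Trav4d-3, above background on the co-culture array only, had 91.8 units there and 19.4 on the naive-only array, at least 4.70-fold higher (1.82-fold with normexp). Trav7d-3 stood at 0.93 ± 0.26, and the probes of Trav15d-1-dv6d-1, a segment that can join alpha or delta chains, at 0.78 ± 0.28 and 0.60 ± 0.25. Trav3-4 was the only T cell receptor probe above background on both arrays that was lower by 2-fold or more. It had 35.0 units on the co-culture array and 75.3 on the naive-only array (-1.11 ± 0.28, or -0.48 with normexp), and its other probe cleared background on neither array. The remaining measured V alpha probes stayed within 2-fold. M20876 stood at 0.51 ± 0.39, the Trav7d-5 probe that spans 250 bases at 0.41 ± 0.35, Trav15-2-dv6-2 at 0.12 ± 0.44 and Trav6d-3 at 0.06 ± 0.24. Trav13-2 stood at -0.07 ± 0.26 and Trav17 at -0.33 ± 0.26. The clone AF012163, detected on the naive-only array only, had 19.0 units on the co-culture array and 40.5 on the naive-only array, at least 2.02-fold lower in co-culture. Trav6d-4, Trav8d-1 and the clone AJ311366, also detected on the naive-only array only, and Trav1, detected on the co-culture array only, had bounds under 2-fold. The other 18 V alpha probes cleared background on neither array.

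The largest difference of any T cell receptor probe above background on both arrays was that of the gamma constant region. It had 517 units on the co-culture array and 27.4 on the naive-only array, a log2 difference of 4.23 ± 0.31 (2.65, or 6.29-fold, with normexp). The mouse has several gamma constant genes, and the description does not name the one this probe reports. Its position, chr13:19444153-19444212, lies beyond all 5 gamma variable probes, the nearest being Trgv3 at chr13:19334939-19334998. None of the 5 gamma variable probes (Trgv3, Trgv4, Trgv5, Trgv6 and Trgv7) cleared background on either array. The members held no probe named for Trgv1 or Trgv2. These 5 therefore cannot show whether gamma V RNA accompanied the constant region RNA. Trgv3 had 17.5 units on the co-culture array and 4.15 on the naive-only array, and the other 4 lay between 4.74 and 5.81 units on the co-culture array and between 4.21 and 10.9 on the naive-only array.

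The delta variable probes did not share a direction. Trdv5 had 44.0 units on the co-culture array and 25.5 on the naive-only array (0.78 ± 0.36). Trdv1 was above background on the naive-only array only, with 5.56 units on the co-culture array and 35.9 on the naive-only array, at least 1.79-fold lower in co-culture. Trdv4 cleared background on neither array, at 13.3 and 8.69 units on the co-culture and naive-only arrays.

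In all, 32 of the 78 T cell receptor probes were well above background on both arrays, 10 on the co-culture array only, 5 on the naive-only array only and 31 on neither. The single-array shares were 12.8% for the co-culture array and 6.41% for the naive-only array, against 2.93% and 4.03% of all noncontrol probes. Of the 32, 5 were higher by 2-fold or more (15.6%, against 6.56% of all 23496 probes measured on both arrays) and 1 was lower by 2-fold or more (against 5.12%). The 5 were the gamma constant region, Trbv1, Trbv13-1, Trav14-2 and Trav14n-1. The median difference of the 32 was 0.21, against -0.05 for all measured probes, and 21 were positive (65.6%, against 45.1%). At signals between 20 and 250 units, geometric mean of both arrays, 20 of 25 receptor probes were positive (80%) and their median was 0.51, against 49.8% and -0.003 for all 9016 noncontrol probes in that range. Each member was printed as 1 spot per array. Among noncontrol probes printed as 10 spots with signals between 20 and 250 units, the median SD between spots was 0.17 on the co-culture array and 0.21 on the naive-only array (log2). Each is the spread of a single spot on its own array, and a difference between arrays carries both.

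Genes whose products work with the receptor were read from the same arrays. The CD3 genes were bright on both arrays, and the differences were 0.90 ± 0.20 for Cd3d, 0.37 ± 0.20 for Cd3e and 0.90 ± 0.20 for Cd3g, all subunits that carry the receptor signal into the cell. Cd247, the zeta chain gene, was at -0.22 ± 0.20. Trat1, a transmembrane adaptor of the complex, had 65.6 units on the co-culture array and 543 on the naive-only array (-3.06 ± 0.23). Of the 5 receptor complex genes, none was higher by 2-fold or more and Trat1 was lower. None of 10 genes for proximal kinases, adaptors and coreceptors passed 2-fold in either direction (median 0.16), among them Lck at 0.25 ± 0.20 and Zap70 at 0.06 ± 0.20.

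Genes that assemble receptor loci were dim or did not clear background. Rag1 and Rag2, the recombinase genes, and Ptcra, the pre-T alpha chain gene, cleared background on neither array, and Dntt, which adds bases at the joints, had 74.5 units on the co-culture array and 78.8 on the naive-only array. Of the 12 measured genes of this list, which also holds factors that act at the receptor loci, Gata3 was higher by 2-fold or more (1.33 ± 0.20), and Tcf7 (-1.50 ± 0.20) and Id3 (-1.61 ± 0.20) were lower. Among 6 genes of receptor down-regulation, Sla2, which encodes an adaptor that lowers surface receptor, was higher by 2-fold or more (1.88 ± 0.20) and none was lower.

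The sort was checked by markers. Of 10 alpha-beta T cell markers, all measured on both arrays, none was higher by 2-fold or more and Trat1 and Cd6 were lower, with a summed signal of 357930 units on the co-culture array and 327195 on the naive-only array. Cd4 had 17944 units on the co-culture array and 13954 on the naive-only array. Of the other CD4 T cell markers, Zbtb7b, a factor of the CD4 lineage, stood at 0.03 ± 0.20, and Cd40lg, which activated CD4 T cells express, was lower by 2-fold or more, with 49.8 units on the co-culture array and 227 on the naive-only array (-2.20 ± 0.25). Cd8a and Cd8b1 had 67.6 and 126 units on the co-culture array, against 47.0 and 184 on the naive-only array. Of 11 genes listed as gamma-delta T cell markers, 9 had a probe and 7 were above background on both arrays. Maf (2.80), Zbtb16 (1.33) and Cd163l1 (1.25) were higher by 2-fold or more. Maf and Zbtb16 are also expressed by other T cells. The summed signal of the 9 was 4166 units on the co-culture array and 3481 on the naive-only array. Of 10 natural killer markers, 5 were above background on both arrays, 2 (Klrd1 and Klrk1) on the co-culture array only and 2 (Ncr1 and Klra8) on the naive-only array only, and Klrb1c was above it on neither. Their summed signal was 23216 units on the co-culture array and 9256 on the naive-only array, most of it from Gzma (22167 and 6336 units), which activated T cells also express. Tyrobp, Fcer1g and Eomes were lower by 2-fold or more. The part of gamma-delta or natural killer cells in the gamma constant difference was not tested.

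B cell markers were lower on the co-culture array. Of 10 B cell markers, 8 were measured in both samples, and each of the 8 was lower by 2-fold or more (median -2.20), with a summed signal of 2636 units on the co-culture array and 11957 on the naive-only array. Of the 6 dendritic and myeloid markers with a probe, 3 were lower by 2-fold or more and none higher, with summed signals of 4686 and 4575 units on the co-culture and naive-only arrays. The part of the share of T cells in the differences of the receptor probes was not tested.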

How the data were processed

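RNA of sorted spleen CD4 T cells was measured on 2 single-colour arrays, 1 per group, on 1 slide. Groups came from the sample titles. Precision is limited by having so few arrays. Per the labels' protocols, RNA was amplified with the Ovation system and labelled with Cy3, which can alter relative levels. Intensity came from Agilent Feature Extraction, version 10.7.1.1 per the file headers (the submitters' processing notes name 9.5.1.1), as a background-subtracted intensity with a modelled error and detection flags. The deposited value table holds intensity normalized by the authors by a method not given in the sources used here. Its median was 14.5 in both columns, its ranks matched the scanner values (Spearman correlation 1), and its log2 differences correlated with the scaled ones at 0.999.

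Levels were log2 of the processed signal minus that of the 75th percentile of noncontrol probes on the same array. Differences are co-culture minus naive-only, with errors from the software's model. Probes well above background on 1 array only were given a bound. No member spot was flagged as an outlier or as saturated. Whether the chain word was the next word or anywhere after the phrase, the rule gave 78 probes. Symbols were formed from the descriptions, or for some cDNA probes taken from the files' gene names. They were found in RefSeq (GRCm38.p6, used for names and segment order only) for 67 probes. The other 11 kept the files' names. Beta variable probes followed the RefSeq segment order with 1 exception, beta variable 10, which kept the file's name. The older Vβ names are general knowledge. Exon and UTR annotation of mm9 was not used here.

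All constant region probes, V beta probes above background on either array, the largest differences and bounds in each direction, and segments tied to TSST-1 or common OVA receptors were named. Members, lists and this rule were chosen with earlier results of these data known. Where a listed gene had several probes, the one of highest mean level was used. The value of 1 listed marker gene is not reported here, though list counts and sums include it. The comparison step was tested on simulated data. Alternatives were normexp (offset 50), quantile and median scaling, no scaling, the deposited table, other filters and thresholds, and flagged spots left out. Python 3.11.15, numpy 2.4.6, pandas 2.3.3, R 4.3.3 and limma 3.58.1 were used.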

Additional observations from a re-analysis of the deposited data

How the results depend on the processing

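No paired analysis was possible because each group had 1 array and no result came from a test, so leaving out a replicate was not possible either, and both arrays shared a slide. Quantile, median and no scaling, the deposited table and leaving out outlier spots kept 5 or 6 receptor probes at least 2-fold higher and 1 lower. Over all measured probes, 6.53% to 7.16% were higher and 4.63% to 5.13% lower in these settings. With normexp 2 were higher (6.25%, against 4.33% of all measured probes) and 0 lower (against 3.02%). All 32 measured members kept their sign, and 30 were smaller in size. Without a filter on dim probes 18 of 78 were higher (23.1%) and 7 lower, against 7.85% and 7.54% of all probes. With a filter of 4 times the lowest signal above background, 1 of 11 measured members was higher and 0 lower. The shares over all measured probes were then 5.73% and 3.77%, and the median over members was -0.064. At 1.5-fold 12 were higher (37.5%, against 14.0% of all measured probes) and 2 lower (against 14.3%). At 4-fold 2 were higher (6.25%, against 1.71%) and 0 lower (against 1.16%). With the positive and significant call, chosen after seeing the data, 12 of 52 measured members were higher (23.1%) and 4 lower. Over all measured probes, 8.999% were higher and 7.87% lower with that call. It detected 2 V beta probes on the co-culture array only and 3 on the naive-only array only. The V beta median, 0.25 in the main values, was 0.54 without a filter and 0.70 with that call. It was 0.17 with normexp and 0.17 with the filter of 4 times the lowest signal. The dim signals limit what the V beta probes can show: most lie within a few times the lowest signal above background.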

Other observations

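Another 7 probes at the receptor loci carry descriptions that the rule did not match, and they were named after their values were seen. Tcrg-V1, which lies on chromosome 13 at 19443911 to 19443970 (mm9), beside the gamma constant probe, had 60.7 units on the co-culture array and 21.1 on the naive-only array (log2 difference 1.51 ± 0.36). Trgv2 cleared background on neither array, at 4.62 and 4.22 units on the co-culture and naive-only arrays. Trav3n-3 had 251 units on the co-culture array and 248 on the naive-only array (0.00 ± 0.21). The V alpha clone X76971 had 90.6 units on the co-culture array and 110 on the naive-only array (-0.29 ± 0.23). The other 3, Trav7n-5, Trav9n-2 and Tcra, cleared background on neither array.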
